A study of Homo sapiens with 4 samples.

Results

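The genes described here encode enzymes of glycolysis, the cytosolic pathway that splits glucose into pyruvate, together with the lactate dehydrogenase subunits that turn pyruvate into lactate. They were HK2, ALDOA, TPI1, GAPDH, PGK1, PGAM1, ENO1, PKM, LDHA and LDHB, chosen by enzyme name and matched by Ensembl identifier, and all 10 were found among the 58051 genes of the count tables, of which 19629 are protein-coding. Tumour cells often run glycolysis and release lactate even where oxygen is present, and mRNAs of several of these enzymes are among the most abundant of any dividing cell. The RNA came from extracellular vesicles (EVs) of PC3 cells, an established human prostate cancer line derived from a bone metastasis, which carried no treatment. The vesicles were collected from medium with vesicle-depleted serum, isolated with an affinity membrane kit (exoEasy) and gravity flow columns (qEV), and sequenced as 2 biological replicates of a stranded total RNA library. The other libraries of the series, made from small RNA, were not used here. RNA of the PC3 cells themselves was not analysed here, so a level in EVs cannot be set against the level in the cell.

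Depth on genes was low. Of 19563744 reads (replicate 1) and 22042233 reads (replicate 2), 489170 and 475942 (2.50% and 2.16%) were counted on genes. Of the rest, 45.5% and 48.1% of all reads were set aside because they aligned to more than 1 place. Another 36.3% and 35.4% were assigned to no annotated feature, and 14.2% and 12.8% did not align. Levels are given as CPM, the count per 1000000 reads counted on genes, and a read is worth 2.04 or 2.10 CPM depending on the replicate. The smallest level taken as measurable, 3 reads, is 6.13 and 6.30 CPM. Reads were counted on epithelial marker genes, with KRT8 at 966 and 1088 reads and all 5 of that list counted in both replicates. KRT18 had 94 and 87 reads, KRT19 36 and 78, and CDH1 4 and 14. The annotated spans of KRT8 and KRT18 overlap on opposite strands of chromosome 12, and which strand their reads came from was not tested. EPCAM had 2 and 26, in replicate 1 fewer than the 3 reads taken as measurable. Of 3 mesenchymal markers VIM had 130 and 87 reads, FN1 34 and 2, and CDH2 none. Of 6 vesicle markers 4 were counted in both replicates, with CD81 at 18 and 16 reads and CD63 at 5 and 29, while CD9 had no read. These are reads counted on genes, whereas the paper probed CD9 as a protein, by western blot. The strand setting of the counting is not given, so a gene without a read is not shown to lack mRNA. The 6 prostate luminal markers, KLK3 among them, had no read in either replicate, nor did the 6 markers of blood and serum. Intervals in the text are 95% intervals that cover counting error only, since amplified reads are not independent molecules.

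Pieces of coding sequence show what 2 of the results below rest on, the close copies of PGAM1 and the gene opposite GAPDH. The first pair is bases 560 to 589 of the coding sequence of PGAM1 (chr10:97431100-97431129, plus strand) and of PGAM4, a gene without introns on the X chromosome (chrX:77969050-77969079, minus strand), read from GRCh38. These 30 bases were chosen because no stretch of that length within a single exon of PGAM1 holds more differences, and capitals mark the 3 differences. Over the 765 coding bases 13 differed, an identity of 98.3%.
PGAM1: gcaacagcctccGgggcattgTcaagcatC
PGAM4: gcaacagcctccAgggcattgCcaagcatG
The second pair is the last 30 coding bases of GAPDH and the same bases read on the other strand, where they lie within an exon of the long non-coding RNA gene ENSG00000269968 (chr12:6538141-6538170). Capitals mark the stop codon of GAPDH and its complement.
GAPDH: ctcatggcccacatggcctccaaggagTAA
ENSG00000269968: TTActccttggaggccatgtgggccatgag

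PC3 EVs held reads of nearly all the enzymes named. At least 1 read was counted in both replicates for 9 of the 10 genes, whereas 21.9% of all protein-coding genes met that rule. At least 10 reads in both replicates were counted for 7 of the 10, against 11.6% of protein-coding genes. The members were chosen with earlier results of these data known, so these shares are given as a description. PGK1 alone had reads in only 1 replicate. Together the genes held 1123 reads in replicate 1 and 943 in replicate 2, a summed level of 2139 CPM ± 222 (SD, n = 2). This was 0.383% (Wilson interval 0.362 to 0.406%) of the protein-coding reads in replicate 1 and 0.341% (0.320 to 0.364%) in replicate 2. GAPDH supplied 45.6% and 39.4% of the reads of the set, and without it the sum was 1224 CPM ± 34.9 (SD, n = 2).

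**Figure D1:**
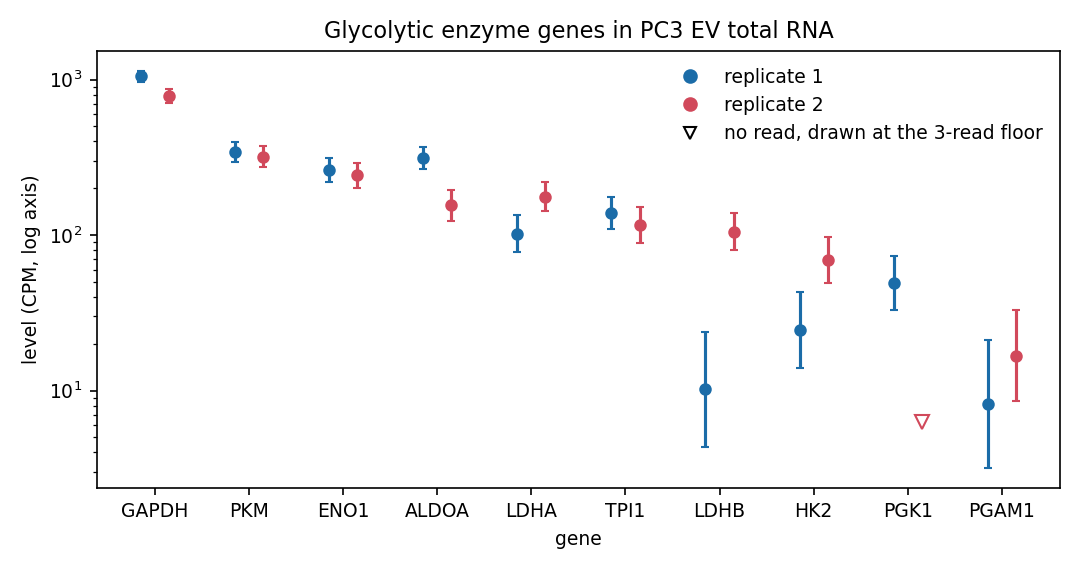
Level of each glycolytic enzyme gene in CPM (log axis) in replicate 1 (blue) and replicate 2 (red) of PC3 EV total RNA, ordered by mean, with 95% Wilson intervals of the count as bars. GAPDH is highest in both replicates, PKM, ENO1 and TPI1 have intervals that overlap between the replicates, and PGK1 has no read in replicate 2, drawn as an open triangle at the level of 3 reads.

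Along the pathway, hexokinase 2 is the first member. HK2 (ENSG00000159399, chr2:74834127-74893359, plus strand) encodes the isozyme that traps glucose in the cell as glucose 6-phosphate and is often raised in tumours. Its counts were 12 reads in replicate 1 and 33 in replicate 2, which gave 46.9 CPM ± 31.7 (SD, n = 2). Replicate 2 was higher by a ratio of 2.83 (exact interval 1.42 to 6.01).

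ALDOA and TPI1 act on the split of the sugar into triose phosphates. ALDOA (ENSG00000149925, chr16:30064164-30070457, plus strand), the aldolase of muscle and of most proliferating cells, had 153 and 74 reads, 234 CPM ± 111 (SD, n = 2), and was lower in replicate 2 with a ratio of 0.497 (0.371 to 0.660). TPI1 (ENSG00000111669, chr12:6867119-6870948, plus strand), which interconverts the triose phosphates, had 68 and 55 reads, 127 CPM ± 16.6 (SD, n = 2). The ratio of its replicates was 0.831 with an interval of 0.572 to 1.20, so the libraries could not be told apart for TPI1.

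The energy-yielding steps in the middle of the pathway were uneven. GAPDH (ENSG00000111640, chr12:6534512-6538374, plus strand), the dehydrogenase that makes NADH and a gene widely used as a reference in qPCR, had 512 and 372 reads, 914 CPM ± 187 (SD, n = 2). It ranked 32 among protein-coding genes by mean CPM, and the ratio of replicate 2 to replicate 1 was 0.747 (0.652 to 0.855). PGK1 (ENSG00000102144, chrX:77910739-78129295, plus strand), the kinase that makes the first ATP of the pathway, had 24 reads in replicate 1 and none in replicate 2. The level in replicate 1 was 7.78 times the floor of 3 reads in replicate 2. The exact interval of the ratio of replicate 1 to replicate 2 began at 5.86. A gene with at least 10 reads in sum and no read in 1 replicate was common in these libraries, 30.5% of 5764 protein-coding genes, so PGK1 is not unusual in this.

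PGAM1 (ENSG00000171314, chr10:97426191-97433444, plus strand), the phosphoglycerate mutase of most tissues, was near the floor. It had 4 and 8 reads, 12.5 CPM ± 6.10 (SD, n = 2), the lowest mean of the set. ENO1 (ENSG00000074800, chr1:8861000-8879190, minus strand), the enolase of most tissues, was far better covered with 128 and 115 reads, 252 CPM ± 14.2 (SD, n = 2). Its replicates gave a ratio of 0.923 (0.712 to 1.20).

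PKM and the lactate dehydrogenase subunits end the pathway. PKM (ENSG00000067225, chr15:72199029-72231819, minus strand), whose splice forms include the M2 form of tumour cells, had 167 and 152 reads, 330 CPM ± 15.6 (SD, n = 2), and a ratio of 0.935 (0.746 to 1.17). Counts per gene do not separate these splice forms. LDHA (ENSG00000134333, chr11:18394560-18408425, plus strand), the subunit suited to making lactate, had 50 and 84 reads, 139 CPM ± 52.5 (SD, n = 2). LDHB (ENSG00000111716, chr12:21635342-21757857, minus strand), the subunit of heart-type lactate dehydrogenase, had 5 and 50 reads, 57.6 CPM ± 67.1 (SD, n = 2). LDHB was the least even of the genes with reads in both libraries, with a ratio of 10.3 (4.12 to 33.0). For LDHA the ratio was 1.73 (1.20 to 2.50).

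Counted over the set, the interval of the replicate ratio left out 1 for 6 of the 10 genes. GAPDH, ALDOA and PGK1 were higher in replicate 1, and LDHA, LDHB and HK2 in replicate 2. The same was true of 66.0% of protein-coding genes with at least 10 reads in sum, so the spread of the set was that of these libraries in general. With 2 replicates of a single condition these ratios compare libraries and no condition.

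Between genes, levels were compared as CPM per kilobase of annotated exon. GAPDH led with 382 ± 78.2 (SD, n = 2), above ALDOA with 61.1 ± 29.0 by more than the SD of either. ALDOA, ENO1 with 48.2 ± 2.72 and TPI1 with 47.1 ± 6.14 differed from their neighbours by less than the SD of ALDOA or TPI1. PKM followed with 38.5 ± 1.82, below TPI1 and above LDHA with 23.1 ± 8.72 by more than the SD of either. LDHB with 19.3 ± 22.5 could not be set apart from LDHA or from the next gene. HK2 with 7.93 ± 5.35, PGAM1 with 4.92 ± 2.40 and PGK1 with 4.51 ± 6.38 stood lowest. HK2 exceeded PGAM1 by less than the SD of HK2, and PGAM1 exceeded PGK1 by less than the SD of either. The order depended on the length used, since the exons annotated for PKM come to 8572 bases and its canonical transcript to 2305. Per kilobase of the Ensembl canonical transcript GAPDH again led, PKM with 143 ± 6.76 (SD, n = 2) lay beside ALDOA with 143 ± 67.8 and ENO1 with 141 ± 7.96, and TPI1 with 94.2 ± 12.3 lay below PKM and ENO1 by more than the SD of any of these 3 genes.

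In 1 or both libraries 8296 protein-coding genes had a read, and among them the median member lay at percentile 94.0 by CPM per kilobase, and 7 of the 10 were at or above percentile 90. GAPDH lay at 99.7, while PGAM1 at 61.7 and PGK1 at 59.2 were near the middle. The median level of the members was 133 CPM, against 18.4 CPM over the 8296 genes. These genes were known to be abundant when they were chosen, so their place is given as a description.

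**Figure D2:**
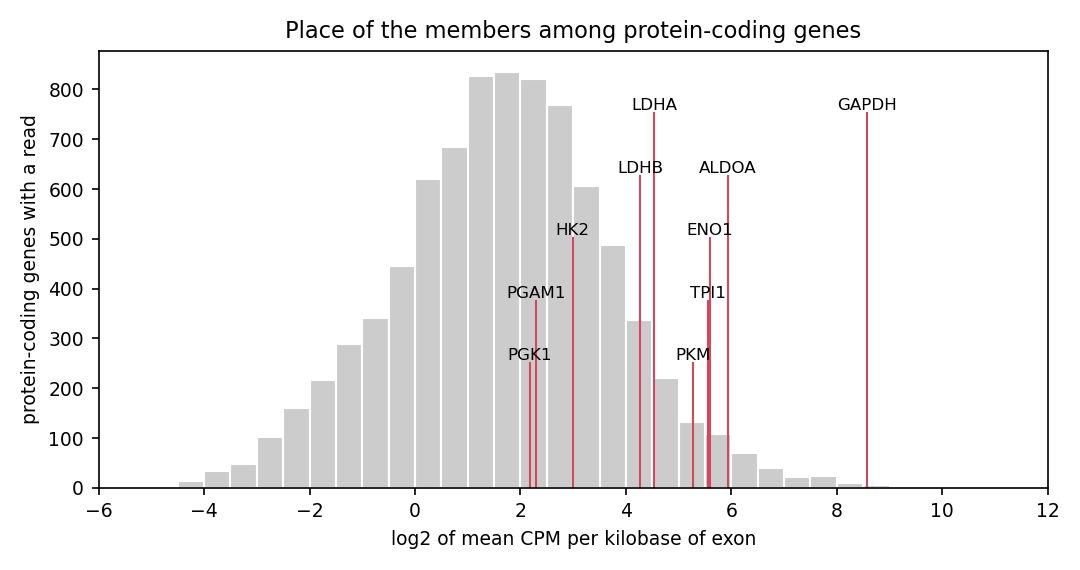
Number of protein-coding genes with a read, in bins of log2 of the mean CPM per kilobase of exon (grey), with the place of each member as a red line whose height only separates the labels. GAPDH lies in the far right tail at percentile 99.7, ALDOA, ENO1, TPI1 and PKM in the upper tail, and PGAM1 and PGK1 near the middle.

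Most of these steps can be run by several isozymes, which differ in the tissues that use them. Of the 31 genes of a wider glycolysis list, which includes the members, 15 had a read in both replicates (48.4%, against 21.9% of protein-coding genes), 3 in only 1 and 13 in neither. Without the members 6 of 21 (28.6%) had a read in both, near the share over protein-coding genes. Among the genes with no read were PKLR of liver, GAPDHS, PGK2 and LDHC of testis, PGAM2 of muscle and ENO2 of neurons. Others without a read were HK3, HKDC1, ADPGK, LDHAL6A and LDHAL6B. ALDOC, the brain aldolase, had 20 reads in replicate 1 and none in replicate 2.

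In 7 of the 9 steps that hold a member, the isozyme with the highest mean CPM per kilobase was a member. The exceptions were hexokinase and enolase. The step of TPI1 holds no other gene, so its outcome was fixed in advance. In lactate dehydrogenase both genes with reads, LDHA and LDHB, are members. The other isozymes listed for GAPDH, PGK1 and PKM had no read. HK1, the housekeeping hexokinase, had 43 and 50 reads, and its CPM per kilobase of 14.0 ± 1.76 (SD, n = 2) exceeded that of HK2 by a ratio of 3.08 in replicate 1 and 1.30 in replicate 2. The difference of their means was larger than the SD of HK2. For lactate dehydrogenase the order was not settled. LDHA exceeded LDHB by a ratio of 4.95 per kilobase in replicate 1, but the ratio was 0.832 in replicate 2.

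ENO3, the muscle enolase, was the best covered gene of the wider list. It had 627 and 764 reads, 1444 CPM ± 229 (SD, n = 2), and ranked 24 among protein-coding genes by mean CPM. Per kilobase it reached 336 ± 53.3 (SD, n = 2), close to GAPDH, and exceeded ENO1 by a ratio of 5.95 in replicate 1 and 8.07 in replicate 2. Over 111 bases the exons of ENO3 lie opposite those of PFN1, which encodes the actin-binding protein profilin and had 121 and 225 reads. Whether reads of other origin contributed to ENO3 was not tested.

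**Figure D3:**
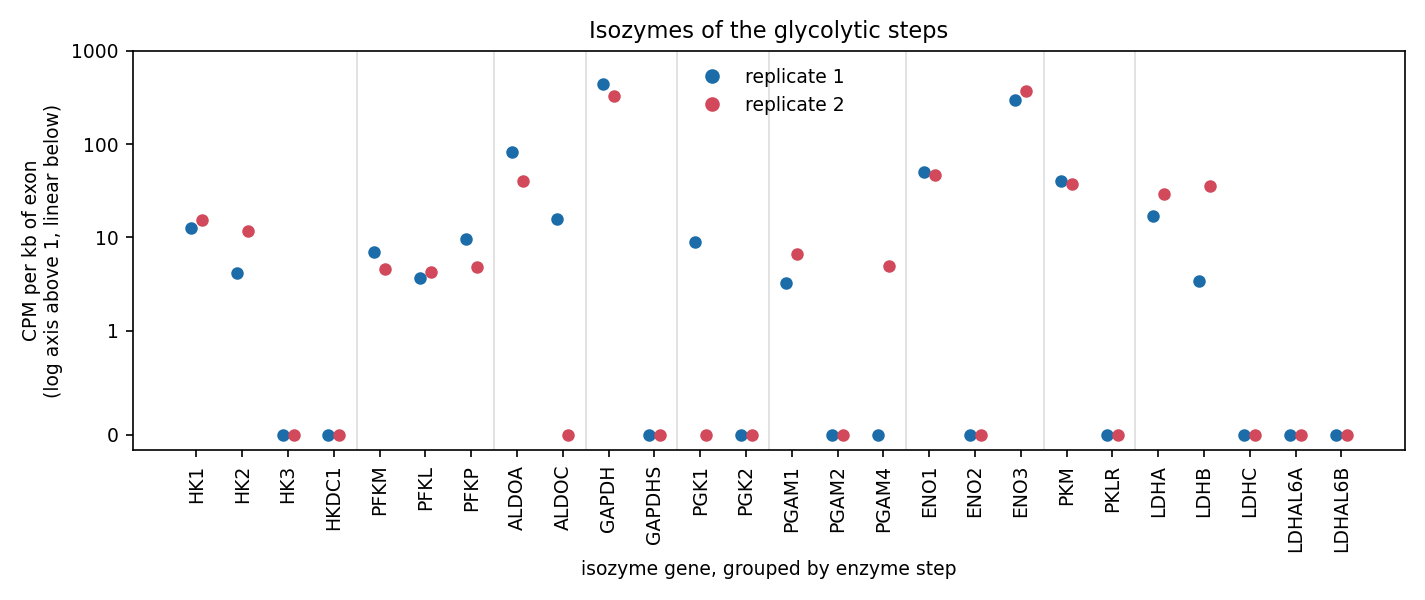
CPM per kilobase of exon (log axis above 1, linear below) of isozymes of the glycolytic steps in replicate 1 (blue) and replicate 2 (red), with vertical lines between the steps. GAPDH and ENO3 stand highest, HK1 lies above HK2 in both replicates, LDHA and LDHB change order, and isozymes such as HK3, PGK2 and PKLR lie at 0.

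Per kilobase of annotated exon, the steps without a member were covered at levels near those of the lowest members. Phosphofructokinase, which commits the sugar to glycolysis, had reads of its 3 subunits in both replicates, with 37 and 18 for PFKP, 25 and 16 for PFKM, and 16 and 18 for PFKL. GPI, the isomerase before it, had 29 and 19. The means per kilobase of annotated exon of these genes, from 3.95 for PFKL to 7.30 for PFKP, lay below that of HK2 at 7.93. Each lay below it by less than the SD of HK2. Annotated exons come to 10680 bases for GPI and 8926 for PFKL, but their canonical transcripts to 4125 and 2907. For HK2 these lengths are 5918 and 5626, so the order against HK2 depends on the length used. By mean CPM without length, PFKP with 56.7 and GPI with 49.6 exceeded HK2 with 46.9. PFKM with 42.4 and PFKL with 35.3 did not, so an order against HK2 was not settled.

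Of 17 transporters and regulators of the pathway, 8 had a read in both replicates (47.1%, against 21.9% of protein-coding genes). The glucose transporter SLC2A1 (GLUT1) had 14 and 55 reads, and the lactate exporter SLC16A3 (MCT4) went the other way with 59 and 11. BSG, the chaperone that brings lactate transporters to the membrane, had 30 and 43. PFKFB3, which makes the activator of phosphofructokinase, had 26 and 27 reads, and PFKFB2 had 19 and 24. HIF1A, the hypoxia factor that raises many glycolysis genes, had 23 and 20, and PDK1, which holds back pyruvate dehydrogenase, 27 and 11. PFKFB4 had 18 reads in replicate 1 and none in replicate 2. MYC, a transcription factor that also acts on glycolysis genes, was the exception in level with 526 and 349 reads, 904 CPM ± 242 (SD, n = 2).

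The pentose phosphate pathway, which branches off at glucose 6-phosphate, had reads in both replicates for 3 of its 9 genes (33.3%). Among these were TKT (transketolase) with 99 and 82 reads and PGD with 23 and 39. Of 25 genes of pyruvate dehydrogenase and the citric acid cycle, 9 had reads in both (36.0%). SDHB of succinate dehydrogenase had 39 and 18, DLD of the pyruvate dehydrogenase complex 31 and 36, IDH3B 24 and 8, PDHX 10 and 11, FH (fumarase) 10 and 10, and MDH2 14 and 2. PDHA1 was uneven with 1 and 25 reads, and MDH1 with 18 and SDHA with 13 were counted in replicate 1 only. Of 8 genes of gluconeogenesis, the reverse route, 2 had reads in both, PC (pyruvate carboxylase) with 66 and 70 and PCK2 with 6 and 4. G6PC3 had 16 reads in replicate 1 alone and FBP2 had 11 in replicate 2 alone. Over protein-coding genes the share with reads in both was 21.9%, so these counts show nothing particular to the 3 lists. The median percentile over all genes of each list was 27.9 for the pentose phosphate, 29.3 for the citric acid cycle and 18.7 for the gluconeogenesis list. It was 59.2 for the wider glycolysis list, and 0 for that list without the members, since most of its other genes had no read.

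Reads were also counted on genes that lie opposite the members. Exons of 4 members, GAPDH, ALDOA, ENO1 and TPI1, lie opposite exons of a gene with reads. In GAPDH that gene is ENSG00000269968 (chr12:6537794-6538370, minus strand), whose 422 exon bases all lie within exons of GAPDH, at its 3′ end. It had 3763 reads in replicate 1 and 3809 in replicate 2, 7848 CPM ± 220 (SD, n = 2), and ranked 11 among all genes of the table. Its reads were 7.35 and 10.2 times those of GAPDH in replicates 1 and 2. Its replicates lay closer together than those of GAPDH itself.

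In ALDOA the opposite gene is ENSG00000274904 (chr16:30064306-30064825, minus strand), near the 5′ end, and all its 520 exon bases are shared. It had 331 and 294 reads, 2.16 and 3.97 times those of ALDOA. In ENO1 and TPI1 the opposite gene had fewer reads than the member. ENO1-AS1 shares 126 bases with ENO1 and had 16 and 3 reads. SPSB2, a neighbouring coding gene, shares 14 bases with TPI1 and had 7 and 33.

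The opposite gene thus had more reads than the member in 2 of 4, while over 3525 protein-coding genes with such a neighbour and at least 10 reads on either, 66.0% had fewer reads than the gene opposite. The sources used here do not give the strand setting of the counting, so which part of these reads came from the mRNA of the member was not tested. For the other 6 members no read was counted on a gene opposite their exons. That does not show which strand their own reads came from, which was not tested either. Among the genes of the other lists, SLC16A3 lies opposite CSNK1D with 146 and 233 reads, and HIF1A opposite HIF1A-AS1 with 123 and 168, in both cases more than the gene itself. The order was the other way for PC opposite LRFN4 with 16 and 31 reads, DLD opposite LAMB1 with 24 and 14, and BSG opposite BSG-AS1 with 12 and 0.

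**Figure D4:**
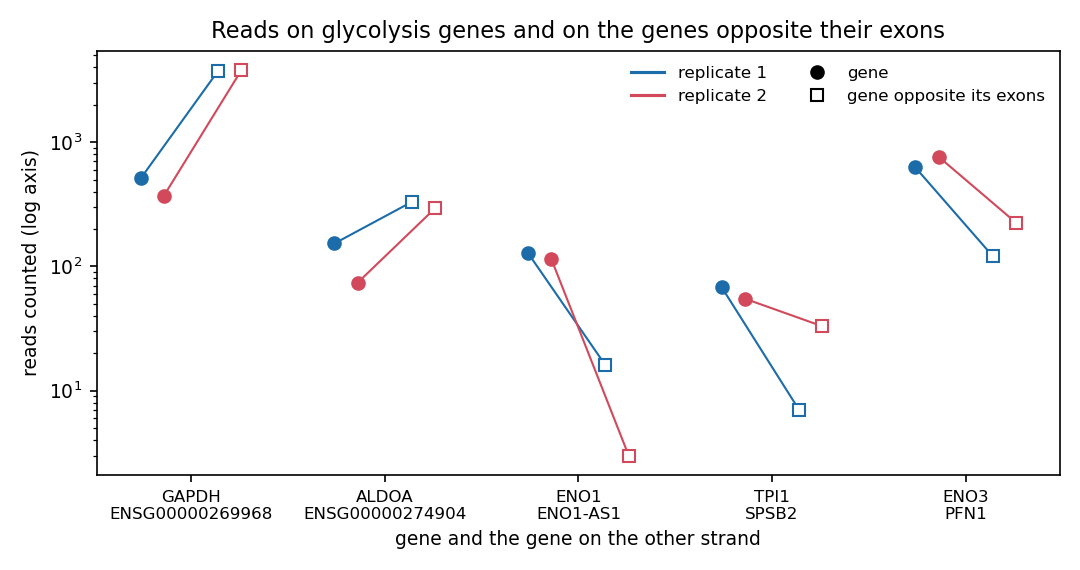
Reads counted (log axis) on 4 members and ENO3 (filled circles) and on the gene opposite their exons (open squares), joined for replicate 1 (blue) and replicate 2 (red). The lines rise for GAPDH and ALDOA, from 512 to 3763 reads for GAPDH in replicate 1, and fall for ENO1, TPI1 and ENO3.

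Each of the members has pseudogenes, many of them copies of its mRNA set back into the genome, and reads that aligned to several places were set aside. The table holds 105 pseudogenes named after the members, 65 of them after GAPDH and 13 after PGAM1. They drew 45 reads in replicate 1 and 17 in replicate 2. Of the 6 with any read, only GAPDHP55 with 40 and 0 reads and GAPDHP16 with 0 and 16 had at least 10, each in 1 replicate.

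The coding part of the canonical transcript was cut into all stretches of 32 and of 64 bases. Each stretch was looked up outside its own gene on the assembled chromosomes of GRCh38. These lengths were not matched to the read length, so the shares do not show how much of each mRNA could be placed. For PGAM1 100% of the stretches of both lengths had an exact copy elsewhere, in 12 annotated pseudogenes among other places. The pair of sequences printed above shows, by contrast, where PGAM4 departs most from PGAM1. PGAM4 had no read in replicate 1 and 4 in replicate 2, and cannot be told apart from PGAM1 where they are identical. TPI1 followed with 65.5% of stretches of 32 bases and 39.9% of 64, then GAPDH with 61.6% and 10.1% and LDHA with 46.0% and 15.7%. HK2 had 33.2% and 12.2%, with 1 annotated pseudogene among the places of its copies, and PGK1 had 27.2% and 3.44%. PKM, ENO1 and LDHB had from 12.4% to 19.1% at 32 bases and at most 2.58% at 64. ALDOA was the most distinct, with 6.28% at 32 bases and 0% at 64.

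PGAM1, with the lowest mean CPM of the members, is also the gene whose coding sequence has copies throughout. The part of these copies in its low count was not tested.

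**Figure D5:**
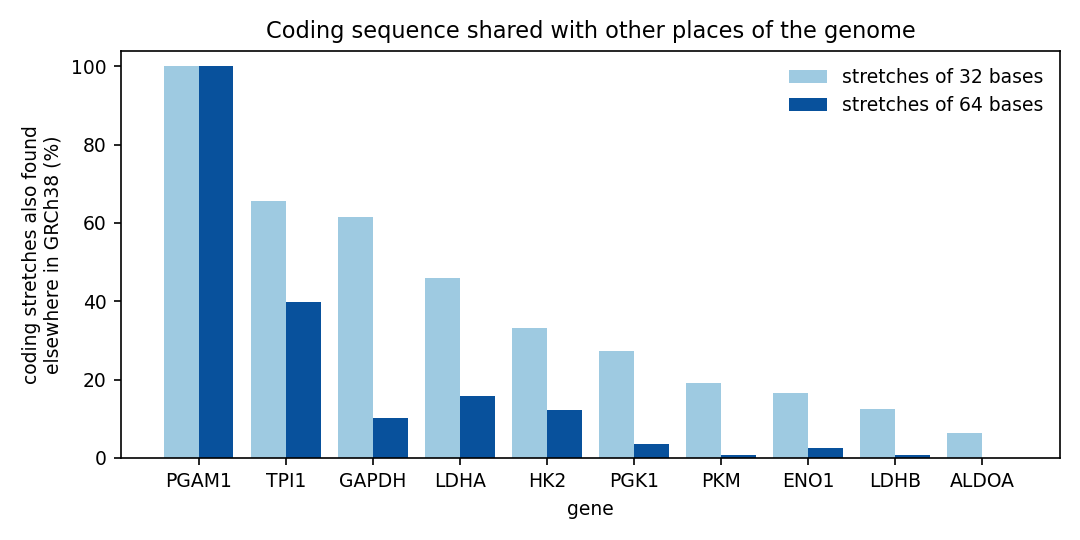
Share of the coding stretches of 32 bases (light blue) and 64 bases (dark blue) of each member that have an exact copy outside the gene in GRCh38, in percent. PGAM1 is at 100% for both lengths, TPI1 and GAPDH exceed 60% at 32 bases, and ALDOA is lowest.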

How the data were processed

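Raw counts of reads per Ensembl gene, deposited by the authors in 1 HTSeq table for each total RNA library, were used without normalisation. Per the paper, reads were trimmed and mapped to GRCh38. Versions, strand setting and annotation release are not given in the sources used here. The title and description of replicate 2 disagree on the preparation number, and its table was taken from the description. Counts were scaled to CPM on all reads counted on genes, with the HTSeq lines for reads set aside left out. Symbols, types and exon lengths came from GENCODE release 44 (56948 identifiers matched, 1103 did not). With 1 condition no test was run: values per library, mean and SD, Wilson intervals of shares and exact Clopper-Pearson intervals of replicate ratios are given. Named were the members, isozymes, opposite genes with a read, and list genes and pseudogenes with at least 10 reads in sum. Isozymes are named whatever their count, and the markers and the genes opposite genes of other lists were picked after their values were seen. Some list genes that meet this rule are counted but not reported by name here. The members and lists were chosen with earlier results of these data known. Levels, intervals and stretch matching were tested on simulated data. Python 3.11.15, numpy 2.4.6, pandas 2.3.3, scipy 1.17.1, matplotlib 3.10.9 and, for TMM factors, edgeR 4.0.16 in R 4.3.3 were used.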

Additional observations from a re-analysis of the deposited data

How the results depend on the processing

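No paired analysis was possible because the vesicle libraries form a single group with nothing to pair against. The number of members identified ranged from 7 to 10 over the minimums of 3 reads, 10 reads or 10 CPM in both replicates and a read in either, and from 9 to 10 with 1 replicate left out. For the wider list it was 13 to 18, and 16 to 17 with 1 replicate. The summed level was 3623 CPM on protein-coding reads, 3798 CPM on the total without the 10 genes of highest mean CPM, and 1224 CPM without GAPDH, an alternative chosen after the data were seen. TMM scaling gave 2136 CPM, and single replicates 1981 to 2296 CPM. The median percentile was 97.4 over all protein-coding genes, and 91.7 to 95.1 with 1 replicate. With replicate 1 left out LDHB lay at percentile 94.9, with replicate 2 left out at 55.5, and PGK1 at 0 and 75.9. A member led 6 to 7 steps with 1 replicate left out, and 2 members had fewer reads than the opposite gene under every alternative tried. At this depth no level under about 6 CPM was measurable.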
